A study of Mus musculus with 6 samples.

Results

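Pulmonary surfactant is the film of phospholipid and protein that lowers surface tension in the alveoli, and alveolar type II cells make it. These cells store surfactant in lysosome-related organelles, the lamellar bodies, secrete it into the alveolus and take much of it back. They are also progenitors of the flat type I cells, and their surfactant output rises around birth.

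The surfactant and alveolar type II cell genes examined in neonatal mouse lung were the surfactant proteins Sftpa1, Sftpb, Sftpc and Sftpd, the lamellar body genes Abca3 and Lamp3, the enzymes Napsa and Lpcat1, the transporter Slc34a2 and the transcription factor Etv5. All probes whose symbol on the array equalled a member were taken, which gave 14 probes for 9 genes. Lpcat1 had no row under that name and was found under its older symbol Aytl2, so that the set comprised 15 probes for 10 genes, of 25697 probes for 18138 symbols on the array. The rule that picks the rows uses gene names only and no measured value, but the members were chosen with earlier results of these data known.

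RNA of whole lungs was taken on postnatal day 6 from male mice of the FVB strain (FVB/N in the study's methods) and hybridized to Illumina MouseRef-8 BeadChips. The 3 hSRY-ON mice carried a recombined Signalox-hSRY transgene, in which FLAG-tagged human SRY and EGFP are driven by the ubiquitous CAG promoter, so no lung cell type was singled out. Recombination, by Cre that a Ddx4-Cre mother had left in the egg, removed DsRed2 at the single-cell stage, and the hSRY-ON mice on the arrays had not inherited Ddx4-Cre themselves. The 3 hSRY-OFF mice were, by that name, mice with the same transgene not recombined. The study also uses controls for littermates that were non-transgenic or carried only Ddx4-Cre, so whether the hSRY-OFF mice on the arrays carried the transgene rests on their label. The transgene is a single-copy insertion in a single responder line. The comparison addresses how lung transcripts of surfactant and type II cells differed with hSRY active. All p-values rest on 3 mice per group. Those of limma use the spread between mice, drawn for each probe toward that of all tested probes.

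Of the array as a whole, between 13191 and 14134 probes were detected per array, and 13841 were tested. In limma, 3728 of these (26.9%) passed an adjusted p of 0.05, with 13.6% higher and 13.3% lower in hSRY-ON. On the log2 scale the 13841 probes had a median change of -0.03, and their changes had a median size of 0.32. The number called fell to 1504, 1621 and 2103 when hSRY-OFF replicate 1, 2 or 3 was left out, and to 2393 when hSRY-ON replicate 2 was.

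Transcripts for the identity of type II cells were plainly present: all 15 member probes were detected on all 6 arrays and all 15 were tested. Sftpb, Abca3, Napsa and Sftpd were higher in hSRY-ON lungs, by 1.31-fold to 1.59-fold. The other 6 genes did not pass the test, and of these Sftpc, Lamp3, Lpcat1 and Etv5 had lower means in hSRY-ON than in hSRY-OFF. Counted by probe, 7 of 15 (46.7%) were called higher in limma, against 13.6% of all tested probes, and 0 lower, against 13.3%; at an adjusted p of 0.05, 26.9% of all tested probes were called in either direction. At an unadjusted p under 0.05, 1 member probe, of Lamp3, was lower. Group values did not overlap for 9 of the 15 probes, against 46.6% of all tested probes. The hSRY-ON arrays lay above at 7 of them (22.4% of all tested probes) and below at 2, those of Sftpc and Lamp3 (24.1%). The median change was 0.39 over the member probes and 0.34 with 1 probe per gene, beside -0.03 over all tested probes. Without hSRY-ON replicate 1 the member probe median was 0.11. As the members were chosen with earlier results of these data known, these shares describe the set and are no independent test of it. In whole lung, a change in the number of type II cells and a change in transcript per cell cannot be told apart.

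**Figure D1:**
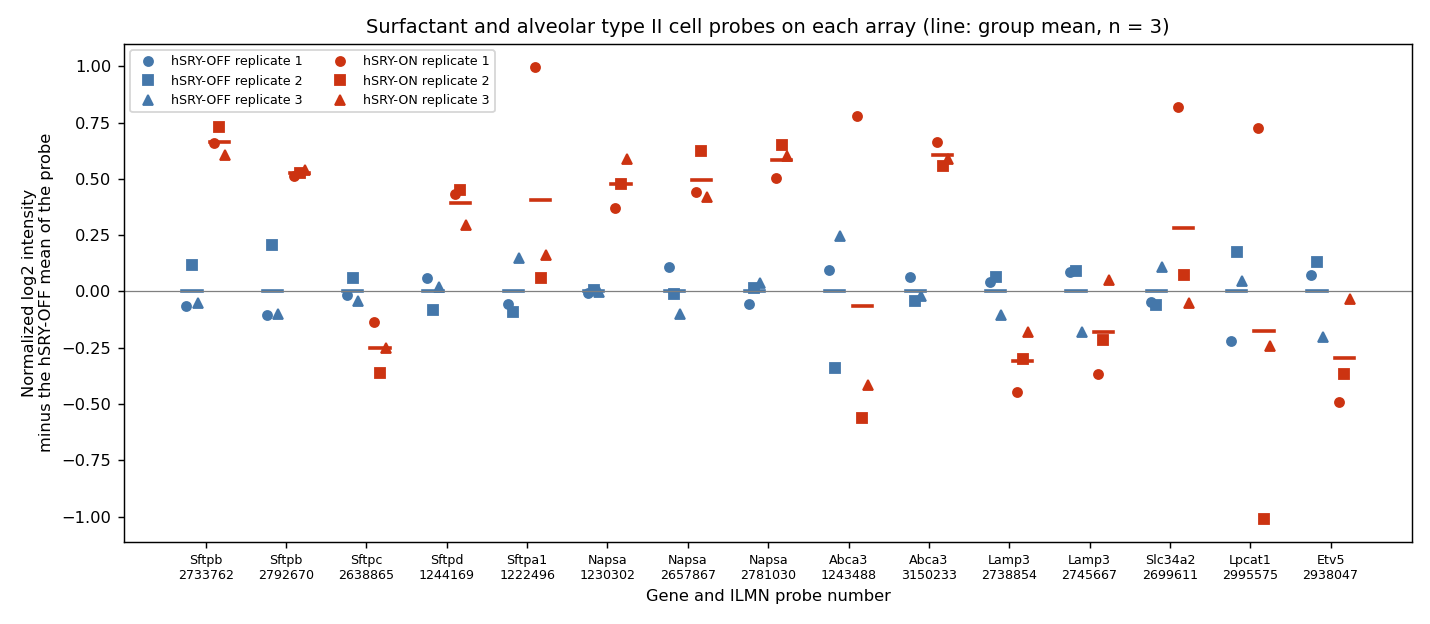
Each point is the normalized log2 intensity of a member probe on 1 array after the hSRY-OFF mean of that probe was subtracted (vertical axis, log2 units); the horizontal axis gives the gene and the probe number, and short lines mark group means of 3 arrays. The 3 hSRY-ON points lie above all hSRY-OFF points for the 7 probes of Sftpb, Napsa, Sftpd and Abca3 that were called, and hSRY-ON replicate 1 lies far above the other hSRY-ON arrays for Sftpa1 and Slc34a2.

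The sequences upstream of Sftpb, Sftpa1 and Abca3 are shown because Sftpb and Abca3 rose together while Sftpa1 did not pass the test, and because the Sftpb and Sftpa1 stretches hold letters of a motif linked to the lung factor NKX2-1. They are the 250 bases before the start site in RefSeq GRCm38.p6, 5′ to 3′ on the strand of the gene, with each CTCAAG in capitals. Sftpb lies at chr6:72304360-72304609, Sftpa1 at chr14:41131538-41131787 and Abca3 at chr17:24351773-24352022, all on the plus strand. The Abca3 stretch precedes a transcript start inside the gene model rather than its outermost start.
Sftpb: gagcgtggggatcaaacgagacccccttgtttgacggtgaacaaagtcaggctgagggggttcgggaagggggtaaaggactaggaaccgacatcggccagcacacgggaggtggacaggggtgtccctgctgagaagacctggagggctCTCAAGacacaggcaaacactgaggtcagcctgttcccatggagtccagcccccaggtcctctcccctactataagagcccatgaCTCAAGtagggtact
Sftpa1: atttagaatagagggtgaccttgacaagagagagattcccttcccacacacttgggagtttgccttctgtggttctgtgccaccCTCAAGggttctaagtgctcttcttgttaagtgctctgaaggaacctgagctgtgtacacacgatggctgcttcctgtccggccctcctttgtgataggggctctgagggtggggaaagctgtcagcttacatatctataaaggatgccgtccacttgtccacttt
Abca3: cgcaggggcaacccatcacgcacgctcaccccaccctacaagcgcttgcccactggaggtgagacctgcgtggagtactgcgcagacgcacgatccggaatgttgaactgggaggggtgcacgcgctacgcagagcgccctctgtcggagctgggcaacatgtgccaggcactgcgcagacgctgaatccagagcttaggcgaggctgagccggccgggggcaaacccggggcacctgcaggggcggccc
Upstream stretches were found for 7 member genes, as 8 start sites with 2 of them for Etv5, and Sftpc, Sftpd and Napsa had no entry. The letters searched on both strands were AACAAT (SRY and SOX factors), CTCAAG (NKX2-1) and TGTTCT (the half-site of the glucocorticoid receptor). Only these exact letters were searched and no variants of them. A stretch without a match may therefore still hold a site of these factors. The reverse complement of TGTTCT can share letters with AACAAT, but no matches overlapped here. CTCAAG occurred in 2 of the 8 stretches, at 100 and 15 bases before the start of Sftpb and at 166 bases before that of Sftpa1, and in 13.3% of 32851 stretches over all genes. AACAAT occurred in 0 of the 8 and in 9.42% of all stretches. TGTTCT occurred in 1 of the 8, on the strand opposite to the gene 67 bases before the start of Lamp3, and in 16.1% of all. These matches describe letters only and say nothing of binding.

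Among the surfactant proteins, Sftpb and Sftpd were higher in hSRY-ON, whereas Sftpc and Sftpa1 did not pass the test. Sftpb encodes surfactant protein B, the small hydrophobic protein needed for lamellar body formation and for spreading of the surface film. At the Sftpb probe ILMN_2733762 the normalized log2 intensity was 13.27, 13.45 and 13.28 on the hSRY-OFF arrays and 13.99, 14.07 and 13.94 on the hSRY-ON arrays. Every hSRY-ON array lay above every hSRY-OFF array, and the spread within a group was small beside the gap. The means were 13.33 ± 0.101 and 14.00 ± 0.063 (SD, n = 3 each), a rise of 0.67 in log2 units (SE 0.11) or 1.59-fold with a limma adjusted p of 0.008. The deposited intensities at this probe, before any normalization, ran from 9612 to 11137 in hSRY-OFF and from 16583 to 17976 in hSRY-ON. The probe ILMN_2792670 read 13.04, 13.35 and 13.04 in hSRY-OFF against 13.65, 13.67 and 13.68 in hSRY-ON. Here too the groups did not overlap, and the hSRY-ON arrays nearly coincided. The rise was 0.52 (1.44-fold, limma adjusted p 0.0247), and the call was lost without hSRY-OFF replicate 1 (adjusted p 0.100), hSRY-OFF replicate 3 (0.0837) or hSRY-ON replicate 2 (0.0628).

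Surfactant protein D is a collectin, a soluble lectin that binds microbes and takes part in surfactant turnover. Its probe read 14.38, 14.24 and 14.34 in hSRY-OFF and 14.76, 14.77 and 14.62 in hSRY-ON. The groups did not overlap. Sftpd rose by 0.39 (SE 0.11, 1.31-fold, 95% interval 1.09-fold to 1.58-fold, limma adjusted p 0.0421). This call lay close to the threshold and was lost without any one of the 3 hSRY-OFF arrays, hSRY-ON replicate 1 or hSRY-ON replicate 2 (limma adjusted p 0.0632 to 0.164) and with cyclic loess normalization (0.0725).

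Surfactant protein C, a membrane-embedded hydrophobic peptide, is the classic marker of type II cells. Its normalized log2 intensity was 14.26, 14.34 and 14.24 in hSRY-OFF and 14.15, 13.92 and 14.03 in hSRY-ON. All hSRY-ON arrays lay below all hSRY-OFF arrays, so Sftpc was placed opposite to Sftpb and Sftpd, and the interval of its change, -0.53 to 0.02, included 0. The deposited intensities overlapped, at 18365, 18111 and 20783 in hSRY-OFF against 17837, 16661 and 18102 in hSRY-ON. The size of the difference depended on the scaling, at -0.03 with median scaling, -0.20 with cyclic loess and -0.25 with quantile normalization. None of the 3 gave a limma call, with adjusted p of 0.897, 0.249 and 0.150. With a variance trend and robust estimation the same change was called lower (adjusted p 0.0318).

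Surfactant protein A is the most abundant collectin of surfactant. Its gene Sftpa1 read 11.37, 11.33 and 11.57 in hSRY-OFF and 12.42, 11.48 and 11.58 in hSRY-ON. A single array, hSRY-ON replicate 1, stood high, and the other hSRY-ON arrays lay within or next to the hSRY-OFF range. The change was 0.41 (SE 0.25, limma adjusted p 0.268), and it was 0.11 without hSRY-ON replicate 1 (adjusted p 0.547).

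Because the signs differed, the proteins were also set against each other within each array, which cancels any scaling shared by bright probes. Only changes in the log2 ratio of a pair are read here, since levels of different probes are not comparable. Sftpb was represented by its brighter probe, ILMN_2733762, and ratios with ILMN_2792670 were not tested. The log2 ratio of Sftpb to Sftpc was -0.99, -0.89 and -0.96 in hSRY-OFF and -0.15, 0.15 and -0.09 in hSRY-ON. The ratio was thus higher on every hSRY-ON array, by 0.92 on the log2 scale. The ratio of Sftpc to Sftpd was -0.12, 0.10 and -0.10 in hSRY-OFF and -0.61, -0.85 and -0.59 in hSRY-ON, a fall by 0.64 with no overlap. The ratio of Sftpa1 to Sftpc was higher by 0.66 and that of Sftpb to Sftpd by 0.27, both without overlap. For Sftpb to Sftpd the gap was narrow, with hSRY-OFF replicate 2 at -0.79 and hSRY-ON replicate 1 at -0.76. It depended on the Sftpb probe, as the groups overlapped for this pair with ILMN_2792670. There hSRY-OFF replicate 2 read 13.35 for Sftpb and 14.24 for Sftpd, and hSRY-ON replicate 3 read 13.68 and 14.62. The rise of the Sftpa1 to Sftpc ratio was 0.42 without hSRY-ON replicate 1, a setting added after the data were seen. Each of these 4 pairs reached an exact two-sided permutation p of 0.1, the smallest that 3 arrays against 3 allow, which is 0.15 after adjustment over the 6 pairs. The remaining pairs overlapped: Sftpa1 to Sftpb changed by -0.26 (exact permutation p 0.5, adjusted 0.6) and Sftpa1 to Sftpd by 0.01 (exact permutation p 1.0, adjusted 1.0). The pairs share genes and are not independent of each other.

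Of the lamellar body genes, Abca3 rose at its bright probe and Lamp3 did not pass the test. ABCA3 is the transporter that pumps phospholipid into lamellar bodies. At Abca3 probe ILMN_3150233 the arrays read 12.68, 12.58 and 12.60 in hSRY-OFF and 13.28, 13.18 and 13.21 in hSRY-ON. The groups were tight and separate, with SDs of 0.0551 and 0.0543. The rise was 0.60 (SE 0.11, 1.52-fold, 95% interval 1.27-fold to 1.81-fold, limma adjusted p 0.00888). A second, dim Abca3 probe, ILMN_1243488, with deposited intensities of 177 to 246 near the array medians of 177.1 to 204.0, read 6.20, 5.76 and 6.35 in hSRY-OFF and 6.88, 5.54 and 5.68 in hSRY-ON. Its groups overlapped and its change was -0.07 (limma adjusted p 0.908), with an interval of -0.91 to 0.78 that holds the change of the bright probe. Its sign turned without hSRY-OFF replicate 3 (0.06), hSRY-ON replicate 2 (0.18) or hSRY-ON replicate 3 (0.11).

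LAMP3 is a glycoprotein of the lamellar body membrane, found also in mature dendritic cells. Its probe ILMN_2738854 read 12.36, 12.38 and 12.21 in hSRY-OFF and 11.87, 12.02 and 12.13 in hSRY-ON. All hSRY-ON arrays lay below the hSRY-OFF arrays. The change was -0.31 with an interval of -0.60 to -0.02 and a limma adjusted p of 0.106. It was called lower without background correction (adjusted p 0.0453) and with a variance trend and robust estimation (0.0389). The other Lamp3 probe, ILMN_2745667, overlapped between groups, at 12.30, 12.30 and 12.03 against 11.84, 11.99 and 12.26, a change of -0.18 (limma adjusted p 0.417).

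Napsa encodes napsin A, an aspartic protease that trims the precursor of surfactant protein B, and all 3 of its probes rose. At ILMN_2781030 the arrays read 13.23, 13.30 and 13.32 in hSRY-OFF and 13.79, 13.94 and 13.89 in hSRY-ON. The rise there was 0.58 (SE 0.11, 1.50-fold, limma adjusted p 0.0104). At ILMN_1230302 the hSRY-OFF arrays read 13.40, 13.41 and 13.40 and the hSRY-ON arrays 13.77, 13.88 and 13.99, a rise of 0.48. The third probe, ILMN_2657867, read 12.70, 12.58 and 12.49 against 13.03, 13.21 and 13.01, a rise of 0.50. No Napsa probe overlapped between groups, so the probes of this gene moved alike. The latter probes had limma adjusted p of 0.0222 and 0.0253, and both lost the call without any one hSRY-OFF array or without hSRY-ON replicate 2 (0.0533 to 0.0912); ILMN_2781030 lost it without hSRY-OFF replicate 1 (0.0531).

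**Figure D2:**
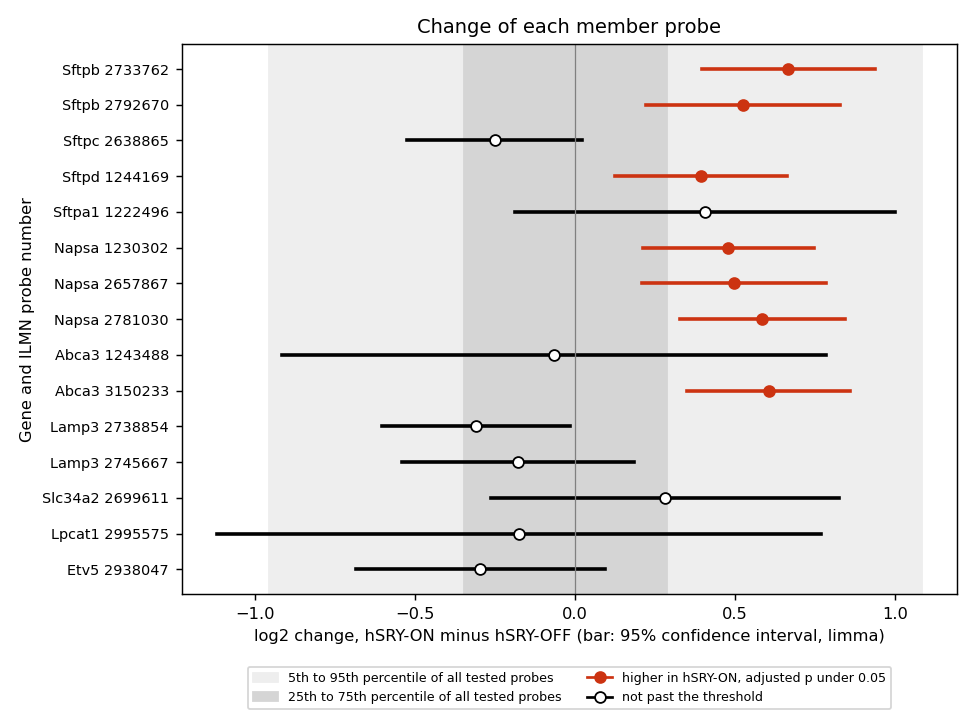
Points give the log2 change of each member probe, hSRY-ON minus hSRY-OFF (horizontal axis), with bars for the limma 95% confidence interval; red marks probes with an adjusted p under 0.05 and the grey bands hold the central changes of all 13841 tested probes. The 7 called probes lie between 0.39 and 0.67, beyond the 75th percentile of all tested probes (0.29) and short of the 95th (1.08), while the intervals of Sftpa1, Slc34a2, Lpcat1 and the dim Abca3 probe are the wide ones.

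The remaining members, which serve phosphate handling, phospholipid remodelling and transcription, did not pass the test. SLC34A2 is the sodium-phosphate cotransporter with which type II cells recover phosphate from surfactant. Slc34a2 read 8.89, 8.88 and 9.05 in hSRY-OFF and 9.75, 9.01 and 8.89 in hSRY-ON, so that hSRY-ON replicate 1 alone stood high. Its change of 0.28 (interval -0.26 to 0.83, limma adjusted p 0.397) was 0.01 without that array. LPCAT1 is the acyltransferase that makes dipalmitoyl phosphatidylcholine, the main surface-active lipid. The Lpcat1 probe read 7.30, 7.69 and 7.56 in hSRY-OFF and spread from 8.24 through 6.50 to 7.27 in hSRY-ON. The hSRY-ON arrays thus lay on both sides of the hSRY-OFF range, and the change was -0.18 with an interval of -1.12 to 0.77 (limma adjusted p 0.771). Without hSRY-ON replicate 2 it was 0.24. ETV5 is an ETS factor downstream of FGF signalling that helps maintain type II cells. Etv5 read 10.44, 10.50 and 10.16 in hSRY-OFF and 9.87, 9.998 and 10.33 in hSRY-ON, with overlap at hSRY-OFF replicate 3 and hSRY-ON replicate 3. Its change was -0.30 (interval -0.68 to 0.09, limma adjusted p 0.220).

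The hSRY-ON lungs varied more among themselves than the hSRY-OFF lungs for 12 of the 15 member probes. The median SD of a member probe was 0.101 in hSRY-OFF and 0.114 in hSRY-ON, and over all tested probes it was 0.130 and 0.223. Within hSRY-ON, replicate 1 was the highest array for 6 of the 15 probes and the lowest for 6, with Sftpa1, Slc34a2, Lpcat1 and the dim Abca3 probe among the first and both Lamp3 probes and Etv5 among the second. When 1 array was left out at a time, the Abca3 probe ILMN_3150233 and the Sftpb probe ILMN_2733762 stayed called in all 6 fits. The number of member probes called was 2, 4 and 3 with hSRY-OFF replicate 1, 2 or 3 left out, and 6, 3 and 7 with hSRY-ON replicate 1, 2 or 3 left out.

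**Figure D3:**
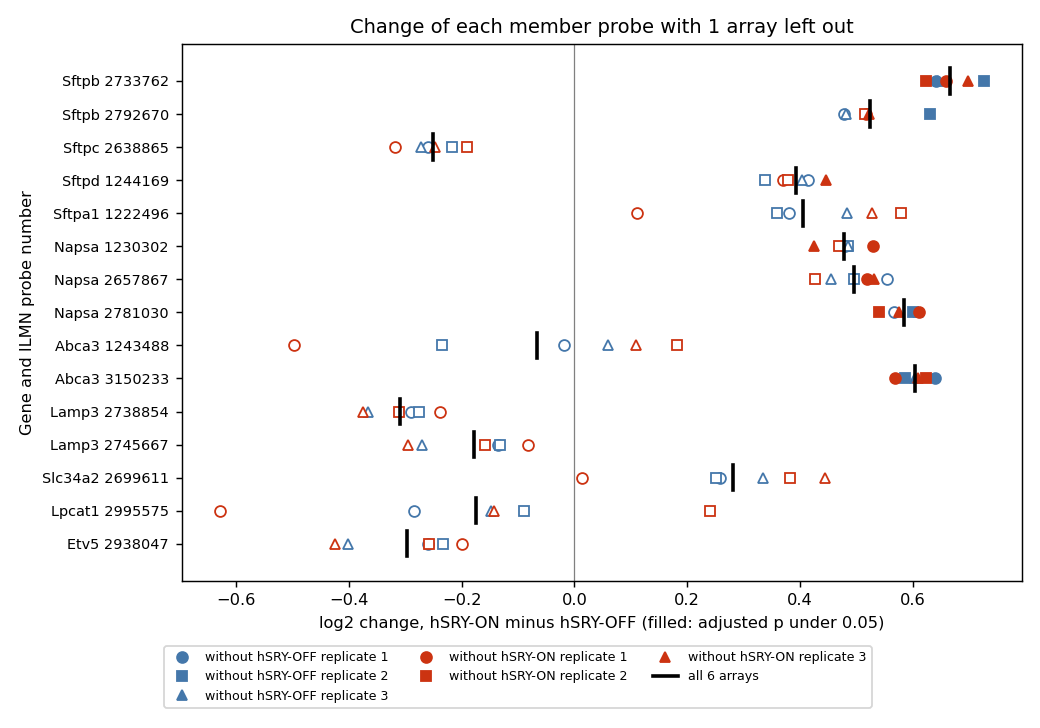
Each symbol is the log2 change of a member probe, hSRY-ON minus hSRY-OFF (horizontal axis), after 1 array was left out; filled symbols passed an adjusted p of 0.05 in limma and the black line marks the change with all 6 arrays. The Sftpb probe ILMN_2733762 and the Abca3 probe ILMN_3150233 are filled throughout, and the changes of Sftpa1 and Slc34a2 drop to 0.11 and 0.01 without hSRY-ON replicate 1.

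Genes for processing, secretion and clearance of surfactant rose where they passed the test: 8 of 27 tested probes, for 7 of 22 genes, were higher in hSRY-ON and 0 lower in limma (also 0 at an unadjusted p under 0.05), beside 13.6% and 13.3% of all tested probes. The median change was 0.18 over these probes. With detection required on all 6 arrays, 6 probes were called higher, and leaving out 1 array at a time gave 6 to 10. Ctsh encodes cathepsin H, another protease of the surfactant protein B precursor, and it read 13.71, 13.79 and 13.77 in hSRY-OFF and 14.64, 14.66 and 14.58 in hSRY-ON. The groups were tight and far apart, with a rise of 0.87 (1.83-fold, limma adjusted p 0.00264). Rab3d, a small GTPase of secretory granules, read 10.03, 10.03 and 9.92 against 11.49, 11.62 and 11.25, a rise of 1.46 (2.75-fold, limma adjusted p 0.00115). Vamp8, a SNARE protein of regulated exocytosis, rose by 0.97 (limma adjusted p 0.00423) at 1 of 2 probes, the other changing by 0.91 (0.106), and Rab27a, a GTPase that moves lysosome-related organelles to the membrane, rose by 1.01 (0.00653). Both Prdx6 probes rose, by 1.54 and 0.87, but lay near background. They were detected on 2 and 1 of the 3 hSRY-OFF arrays, so they passed the detection filter only with the hSRY-ON arrays. Peroxiredoxin 6 has the phospholipase activity that degrades surfactant lipid. Nedd4l, a ubiquitin ligase that acts on the surfactant protein C precursor and the epithelial sodium channel, rose by 0.71. Abcg1, a cholesterol exporter abundant in alveolar macrophages, rose by 1.96. Csf2ra, a receptor chain through which GM-CSF drives surfactant uptake by macrophages, read 8.67, 8.55 and 8.70 against 8.77, 10.07 and 9.39, a change of 0.77 that did not pass the test (limma adjusted p 0.101). Csf2rb did not pass the detection filter.

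Of 43 tested probes for surfactant lipid genes, 10 were called higher and 5 lower, for 8 and 4 of 31 genes, beside 13.6% and 13.3% of all tested probes. The count of lower probes is thus near the background. Cds1, which makes the CDP-diacylglycerol used for phosphatidylglycerol, read 10.30, 10.30 and 10.39 in hSRY-OFF and 11.22, 11.35 and 11.18 in hSRY-ON, a rise of 0.92 (limma adjusted p 0.00264). All 3 probes of Chpt1, the choline phosphotransferase that completes phosphatidylcholine, rose, by 0.50 to 0.70. The choline kinase Chkb rose by 0.52, the acyltransferase Agpat2 by 0.70, the acyl-CoA synthetase Acsl4 by 0.68 at 1 of 2 probes (0.44 at the other, not called) and the phosphatidate phosphatase Lpin2 by 1.67. Plin2, which coats lipid droplets, rose by 1.02 and Lpl, the lipase that releases fatty acids from lipoproteins, by 1.20. Scd1, the stearoyl-CoA desaturase, read 11.10, 11.12 and 11.12 against 10.54, 10.30 and 10.53, a change of -0.66 (limma adjusted p 0.00905). Insig1, a sterol-sensing anchor of SREBP in the endoplasmic reticulum, changed by -0.79 and -0.85 at 2 of 3 tested probes and by -0.54 at the other, which was not called (limma adjusted p 0.380). The fatty acid elongase Elovl6 changed by -0.54, and its relative Elovl1 by -0.53 at 1 of 4 probes, the others ranging from -0.17 to -0.06 without a call. Pcyt1a, the rate-limiting step of phosphatidylcholine synthesis, changed by 0.11 (limma adjusted p 0.686), and Fasn did not pass the detection filter. These counts were 6 higher and 1 lower when hSRY-OFF replicate 1 was left out and 7 and 1 when hSRY-OFF replicate 2 was; with hSRY-OFF replicate 3 or hSRY-ON replicate 2 left out, 3 were lower.

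Of 40 tested probes for transcription factors and receptors of type II cells, 6 were called higher and 4 lower, for 5 and 4 of 25 genes, beside 13.6% and 13.3% of all tested probes. Both counts are near the background and are no result about this list. Nkx2-1, the lineage factor of lung epithelium, had a probe at 8.04, 8.47 and 8.55 in hSRY-OFF and 8.68, 7.92 and 7.21 in hSRY-ON, and a second at 6.16, 6.27 and 5.75 against 6.50, 6.51 and 6.17. Both overlapped between groups, and their changes of -0.42 and 0.33 had limma adjusted p of 0.409 and 0.203. Foxa2, a partner of Nkx2-1, changed by 0.11 (limma adjusted p 0.735), and Cebpa, which acts in type II cell maturation, by 0.57 (0.0516). Nr3c1, the glucocorticoid receptor, did not pass the detection filter. Nfib, a factor of perinatal lung maturation, read 11.78, 11.61 and 11.40 against 10.58, 10.56 and 10.71, a change of -0.98 (limma adjusted p 0.00399). Etv4, the close relative of Etv5, read 8.88, 8.61 and 9.09 against 6.30, 7.21 and 7.36, a change of -1.90 (limma adjusted p 0.0054). The thyroid hormone receptor Thra changed by -0.51 at 1 of 2 probes (-0.03 at the other, not called), and the cell cycle factor Foxm1 by -1.12 at 1 of 2 (-1.07 at the other, not called). The higher genes were Klf9, a factor induced by glucocorticoid and thyroid hormone (1.51), Egfr at 1 of 4 probes (0.996), Elf3 at 2 of 3 probes (1.10 and 0.93), Klf5 (0.70) and Grhl2 (0.52), the last 4 expressed in epithelia at large. The number of higher probes was 1 without hSRY-OFF replicate 2 and the number of lower ones 2 without hSRY-OFF replicate 1, hSRY-OFF replicate 2 or hSRY-ON replicate 2. Elf3 and Grhl2 stand also in the list of general epithelial markers, and Cebpa in that of other type II cell markers. The counts of these lists are therefore not separate.

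Of 31 tested probes for other markers of type II cells, 8 were called higher and 4 lower, for 7 and 3 of 20 genes, beside 13.6% and 13.3% of all tested probes. The count of lower probes is near the background. Hc, complement component C5, rose by 1.29 (limma adjusted p 0.00287), the potassium channel Kcnj15 by 1.28 (0.00904) and Lcn2, a siderophore-binding defence protein, by 1.50 (0.00958). Dram1 and Wfdc2 rose by 0.43 and 0.37. Cxcl15, a chemokine of lung epithelium, read 14.92, 14.76 and 14.71 against 14.94, 14.90 and 14.94 and did not pass the test (limma adjusted p 0.404). In all, 10 of the 20 genes were not called, among them Lgi3 (-0.03), Cldn18 (-0.29) and Muc1 (0.12 to 0.28 over its probes). The lysozyme genes Lyz1 and Lyz2 are close copies, so their probes may not tell them apart. Among their 6 probes 3 were called higher, by 0.74 at Lyz1 ILMN_2736867, by 0.40 at Lyz2 ILMN_1252076 and by at least 1.59-fold at Lyz2 ILMN_2766780. The last was not detected on any hSRY-OFF array, so it passed the detection filter only through the hSRY-ON arrays. Cd74, the invariant chain of MHC class II that type II cells share with antigen-presenting cells, read 13.35, 13.74 and 13.49 in hSRY-OFF and 10.78, 11.27 and 12.69 in hSRY-ON at ILMN_1221817. Its hSRY-ON values were scattered but all lower, a change of -1.95 (limma adjusted p 0.0201), and the second Cd74 probe changed by -1.58. Acoxl, an acyl-CoA oxidase relative, changed by -1.08 and the alarmin Il33 by -0.59. Leaving out any one array except hSRY-ON replicate 1 gave 4 higher probes, and leaving out any one hSRY-OFF array gave 0 lower probes, or 1 without hSRY-ON replicate 2.

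**Figure D4:**
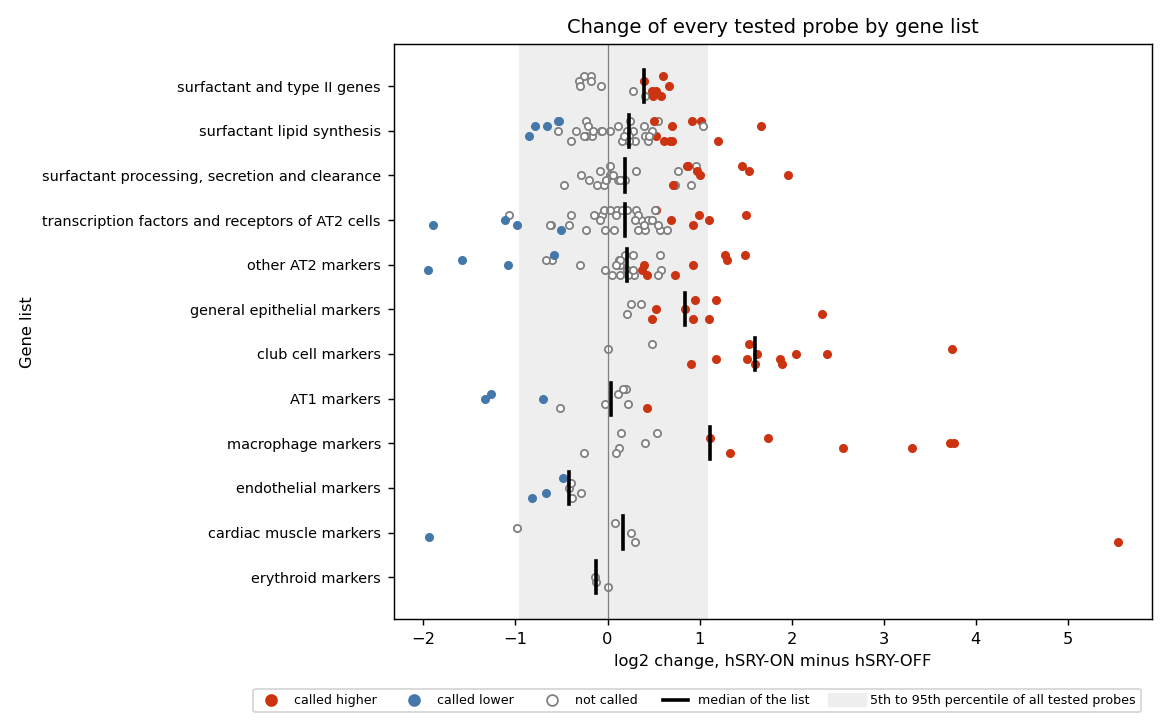
Each point is the log2 change of a tested probe, hSRY-ON minus hSRY-OFF (horizontal axis), by gene list; red and blue mark probes called higher and lower, black lines mark list medians and the grey band holds the central 90% of all tested probes. The member list has a median of 0.39, the general epithelial list 0.84, the club cell list 1.60, the macrophage list 1.11 and the endothelial list -0.42.

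Markers of other lung cells were read in the same comparison, beside 13.6% of all tested probes called higher and 13.3% lower. General epithelial markers were higher in hSRY-ON at 8 of 11 tested probes, with a median change of 0.84. The tight junction genes Cldn4 and Cldn3 rose by 2.33 and 0.84 and the keratin Krt19 by 1.18. Cdh1 (0.22) and Cldn7 (0.25) overlapped between groups and were not called. Their summed level, as log2, was 12.60 to 12.68 in hSRY-OFF and 13.37 to 13.56 in hSRY-ON, while that of the 10 member genes was 16.23 to 16.26 and 16.50 to 16.57. Such a sum is set mostly by the brightest genes. With each member gene counted alike, the mean log2 value was 11.8346, 11.8793 and 11.841 in hSRY-OFF. In hSRY-ON that mean was 12.2113, 11.8824 and 11.9997, so hSRY-ON replicate 2 barely exceeded hSRY-OFF replicate 2. Club cell markers were higher at 11 of 13 probes, with Scgb3a1 up by 3.75, Hp by 1.63, Cldn10 by 2.05 and Scgb3a2 by 1.52 at 1 of 2 probes, and a summed level of 16.16 to 16.21 against 16.78 to 17.01. The other Scgb3a2 probe changed by 0.48 (limma adjusted p 0.0571). Among the higher club cell probes, ILMN_2638082 of Scgb3a1 was not detected on any hSRY-OFF array and passed the detection filter only through the hSRY-ON arrays. The defining club cell gene Scgb1a1 changed by 0.01 (limma adjusted p 0.972). Macrophage markers were higher at 7 of 13 probes, with Chil3 up by 3.76, Marco by 2.56, Cd14 by 1.74 and Mrc1 by 1.11, and a summed level of 11.74 to 11.96 against 13.09 to 14.38; Itgax was not detected on any array and the probes of Adgre1 and Csf1r were not called. Endothelial markers were lower at 3 of 7 probes, Tie1, Cldn5 and Cdh5, with a summed level of 15.24 to 15.35 against 14.73 to 14.77, and 5 probes were lower without hSRY-ON replicate 1. Type I cell markers had 1 of 10 probes higher (Col4a3) and 3 lower (both of Igfbp2 and Clic5), and the summed levels of the groups overlapped. The count of higher probes is near the background. Not called were Pdpn (0.23), Emp2 (0.20), Aqp5 (0.17), Ager (0.11 and -0.03) and Cav1 (-0.52). Without hSRY-OFF replicate 1 or 2 only 1 type I probe was lower, and the higher one was called only in the fit without hSRY-ON replicate 3 when 1 array was left out. No probe of the epithelial, club cell or macrophage lists was lower, and none of the endothelial list higher, in limma at an unadjusted p under 0.05. The part of these cell types in the changes of the surfactant genes and of the other type II cell markers was not tested. Of the 3 erythroid probes, that of Hba-a1 is the brightest on every array and quantile normalization gives it the same value throughout, so it could not be called, and 0 of the others passed limma's test, also at an unadjusted p under 0.05. The cardiac markers had 1 of 6 probes higher and 1 lower, the atrial genes Nppa (5.55) and Myl4 (-1.94), and 2 lower without hSRY-ON replicate 1. The cardiac counts with all arrays are near the background. Without hSRY-OFF replicate 1, 2 or 3 the general epithelial count was 5, 3 or 5, and without hSRY-OFF replicate 1 or 2 the macrophage count was 4.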

How the data were processed

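The authors deposited, for each probe and array, an intensity (mean bead signal on a linear scale, not background-corrected or normalized between arrays) and a detection p-value (the share of negative control probes that were brighter). The software that summarised the beads is not given in the sources used here. Each group had 3 arrays, named by group and replicate from the sample labels.

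The study used TCC, a count-based package, on its arrays. Because the deposited values are intensities, limma 3.58.1 in R 4.3.3 was used here. The neqc steps were followed: background inferred through the detection p-values, an added offset of 16, quantile normalization between arrays, then log2. Quantile normalization removes overall shifts between arrays, and the offset compresses changes of dim probes. A probe was kept if 3 or more of the 6 arrays had a detection p below 0.05. Groups were compared with lmFit and eBayes (two-sided, no covariates). The eBayes step draws the variance of each probe toward those of all kept probes. SEs, intervals and p-values are therefore moderated, and those of a tight probe reflect more than its own spread. Benjamini-Hochberg adjustment covered every kept probe, and an adjusted p below 0.05 was a call. Changes are hSRY-ON minus hSRY-OFF and intervals are 95%. The summed level of a list is log2 of the sum of unlogged normalized values, with 1 probe per gene, that of the highest mean. For a probe undetected throughout a group, the fold is a bound against the lowest detected signal.

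All member probes are named. From each related list the 4 genes of smallest adjusted p per direction are named, with Nkx2-1, Foxa2, Cebpa, Nr3c1, Lyz1, Lyz2, Cxcl15, Pcyt1a, Fasn, Scd1, Ctsh, Csf2ra and Csf2rb whatever their result. Other called genes and the markers Scgb1a1, Cdh1, Cldn7, Adgre1, Csf1r, Itgax, Pdpn, Emp2, Aqp5, Ager, Cav1, Lgi3, Cldn18 and Muc1 were named after their values were seen. The members and lists were chosen with earlier results of these data known. Older symbols and upstream sequences came from RefSeq tables (GRCm38.p6). The pipeline was tested on simulated data. Alternatives were other background corrections, normalizations, filters, variance models, thresholds, array weights, a replicate block, 1 probe per symbol and leaving out each array. The number of arrays limits the precision.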

Additional observations from a re-analysis of the deposited data

How the results depend on the processing

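The change of every member probe kept its direction under all alternatives run, except the dim Abca3 probe ILMN_1243488, which turned to 0.000904 if background was not corrected and ran from -0.50 to 0.18 with 1 array left out, and Lpcat1, which ran from -0.63 to 0.24 and turned only if hSRY-ON replicate 2 was left out. Among related genes, Pcyt1a ran from -0.028 to 0.30 and Foxa2 from -0.0937 to 0.23 with 1 array left out. The cause was not tested. Of the 7 member probes called higher, 2 passed an adjusted p under 0.01 and 4 were called with 1 probe per symbol, which tests 10 member probes. No member probe was called lower, but 1 was without background correction and 2 were with a variance trend and robust estimation. Leaving out 1 array gave 2 to 7 member probes called, all higher. For all probes, an adjusted p under 0.01 gave 1326 calls (772 higher and 554 lower), and leaving out 1 array gave 1504 to 4384 calls, 912 to 2052 higher and 592 to 2332 lower.

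By replicate number the arrays showed no clear pairing. Same-numbered arrays had correlations of their deviations from the group means of -0.107, 0.096 and -0.093. Not every array correlated best with its own number. Such deviations depend on each other within a group of 3, so the check cannot decide whether arrays shared a litter. With the replicate block, 3 member probes were called, all higher, and 2655 probes in all. The number of arrays and, for dim probes, the signal over background limit these values.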
